A study of Mus musculus with 6 samples.

Results

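The genes followed here carry death and survival signals from the receptors of tumour necrosis factor (TNF) to the caspases. They are the receptor genes Tnfrsf1a and Tnfrsf1b, the adaptor genes Fadd and Ripk1, the initiator caspase genes Casp8 and Casp9, and the inhibitor of apoptosis (IAP) genes Birc2, Birc3 and Xiap. A gene was taken where the array annotation gave a transcript cluster exactly that symbol. Such a cluster groups the probes designed along 1 gene or transcript. Of the 9 genes, 8 had a cluster, 1 each, among 65956 clusters on the array, and Ripk1 was not analysed here. Hematopoietic stem cells (HSCs) had been sorted by flow cytometry from lineage-depleted bone marrow of wild-type mice and of CDK19-/- mice, 6 to 8 weeks old, with 3 arrays per genotype. CDK19 is a cyclin-dependent kinase of Mediator, a coactivator of RNA polymerase II, and the title of the series asks how it bears on HSC proliferation and p53-driven transcription. The labels call the arrays biological replicates without saying how many animals each one holds, and they do not describe the deletion, the strain or the sort gate, so p-values measure the spread between these arrays. Values are the log2 expression values that the authors deposited, with the log base read from their range.

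TNF binds TNFR1 (encoded by Tnfrsf1a), which carries a death domain, and TNFR2 (encoded by Tnfrsf1b), which does not. At TNFR1, RIPK1 and the cIAP ubiquitin ligases encoded by Birc2 and Birc3 assemble a complex that activates NF-kB and favours survival. When that complex is disrupted, FADD recruits the caspase encoded by Casp8 and the cell can die by apoptosis, while in the absence of that caspase RIPK1 and RIPK3 can drive necroptosis through MLKL. Casp9 encodes the initiator of the mitochondrial route, activated on APAF1, and XIAP inhibits caspases directly.

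In the knockout HSCs, Casp8 fell and Birc3 and Tnfrsf1b rose, and the other 5 genes did not pass the test. The log2 change was -0.54 for Casp8, 0.39 for Birc3 and 0.36 for Tnfrsf1b, which is 1.45-fold lower, 1.31-fold higher and 1.28-fold higher. The calls of Birc3 and Tnfrsf1b were each lost on dropping any of 5 of the 6 arrays, while that of Casp8 was kept whichever array was dropped. Birc2, the neighbour of Birc3 on chromosome 9, had a change of 0.46 that missed the threshold. All 8 measured genes passed the filter on dim clusters. Of these 3 (37.5%) were called, against 7.8% of the 39543 clusters tested and 10.6% of the 12919 protein-coding ones among them (limma, Benjamini-Hochberg adjusted p under 0.05 over all tested clusters). The 2 called higher compare with 2.96% of all tested clusters and 4.72% of the protein-coding ones called higher, and the 1 called lower with 4.84% and 5.9% called lower. The genotypes did not overlap in 7 of the 8 genes, against 26.5% of tested clusters and 38.0% of protein-coding ones. These genes were chosen with earlier results of these data known, so setting the shares side by side tests nothing. The median change of the 8 was -0.07, and that of all tested clusters 0.003.

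The genotype labels were checked on Cdk19 itself, which fell in the knockout from 12.44 ± 0.06 (SD, n = 3) to 11.47 ± 0.05 (SD, n = 3), a log2 change of -0.97 (limma, adjusted p = 3.2e-04). Where the probes lie relative to the deleted part is not known here, so the remaining signal checks nothing. Among HSC and early progenitor markers Kit was at 14.53 and Slamf1 at 5.78 in wild type, and Ly6a was not analysed here. Of the 10 measured, 3 fell and 0 rose (5 fell and 1 rose at an unadjusted p under 0.05, limma). Shares of all tested clusters at that unadjusted cutoff were not computed, so such counts have no background here or below. Of 8 T and NK cell markers, Cd3e (3.72 in wild type and 3.84 in knockout) and Cd8a lay below the limit of 4.09 set for testing, while Nkg7, a granule gene of cytotoxic cells, was at 12.70 and 12.99. Of the 6 tested none passed, 0 higher and 0 lower (2 higher and 0 lower at an unadjusted p under 0.05, limma), and the mean over the 8 was 5.52 to 5.64 in wild type and 5.63 to 5.66 in knockout. The B cell marker Cd79a was at 5.56 and 4.96 and was called lower (limma, adjusted p = 0.0095). The platelet factor gene Pf4 was at 6.12 and 6.38 and did not pass (limma, adjusted p = 0.11).

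**Figure D1:**
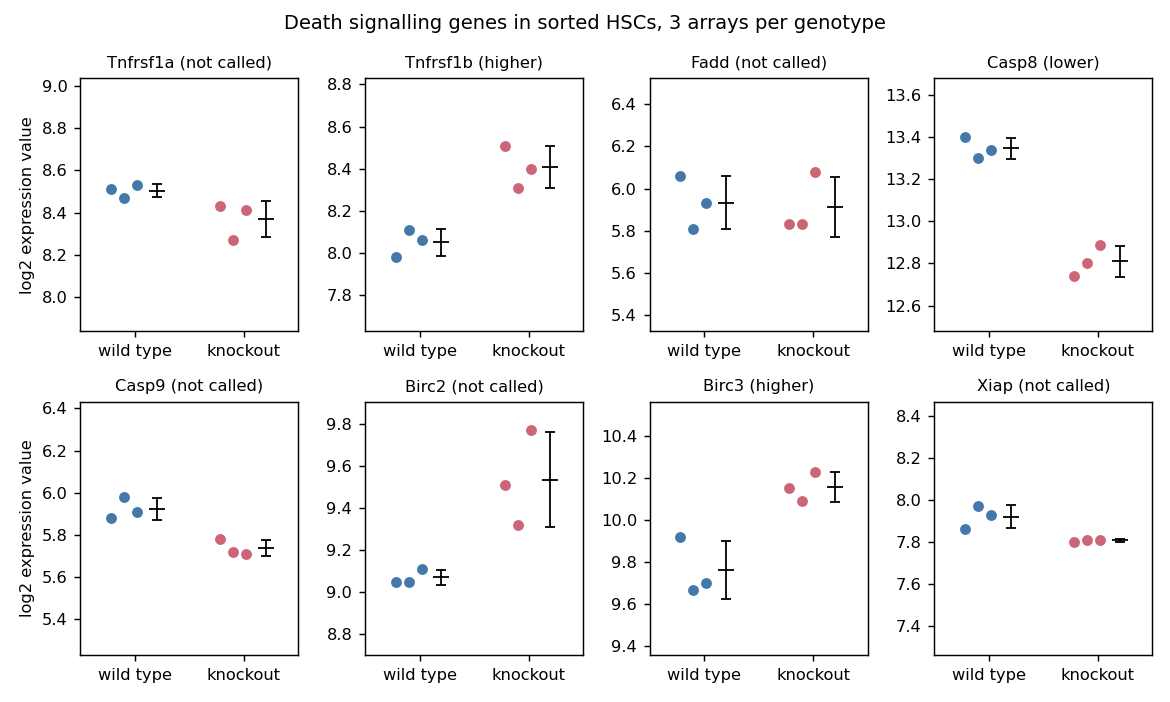
Log2 expression value (vertical axes, each spanning the same range of log2 units) of the 8 measured genes on each array, with the mean ± SD of 3 arrays beside the points. Casp8 lay between 12.74 and 12.89 in knockout and between 13.30 and 13.40 in wild type, and only the Fadd groups overlapped.

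The upstream regions of the genes that passed the test are shown because these genes sit at different points of the route, the caspase, the ubiquitin ligase and the receptor without a death domain. Each line gives the 250 bases before the annotated start, 5′ to 3′ on the gene's strand, from RefSeq (GRCm38.p6), with every CG dinucleotide in capitals. The regions are chr1:58802252-58802501 on the plus strand for Casp8, chr9:7873171-7873420 on the minus strand for Birc3 and chr4:145246871-145247120 on the minus strand for Tnfrsf1b.
Casp8: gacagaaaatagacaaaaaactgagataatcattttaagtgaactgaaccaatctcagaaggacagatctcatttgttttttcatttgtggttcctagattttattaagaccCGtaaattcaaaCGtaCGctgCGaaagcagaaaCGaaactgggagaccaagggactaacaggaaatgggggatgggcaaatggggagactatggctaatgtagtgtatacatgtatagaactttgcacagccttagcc
Birc3: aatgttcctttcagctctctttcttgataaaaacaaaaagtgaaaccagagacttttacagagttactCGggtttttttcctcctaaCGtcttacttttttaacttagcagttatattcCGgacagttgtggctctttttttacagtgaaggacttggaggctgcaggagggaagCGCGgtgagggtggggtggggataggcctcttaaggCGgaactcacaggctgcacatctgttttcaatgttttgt
Tnfrsf1b: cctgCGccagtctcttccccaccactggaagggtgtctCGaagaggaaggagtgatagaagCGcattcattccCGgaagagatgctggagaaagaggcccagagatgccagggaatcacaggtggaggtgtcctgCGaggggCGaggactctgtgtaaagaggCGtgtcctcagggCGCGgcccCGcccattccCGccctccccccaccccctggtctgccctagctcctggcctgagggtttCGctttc
CG occurred 5 times before Casp8, 6 times before Birc3 and 12 times before Tnfrsf1b. The median over all 32851 promoters of the table was 6, and 92.1% held at least 1. Bases G and C made up 39.6% of the Casp8 window, 43.6% of the Birc3 window and 62.8% of the Tnfrsf1b window, with a median of 52.4% over the table. The NF-kB consensus motif, searched on both strands, had 0 matches in the 11 promoters listed for the 8 genes and at least 1 match in 3.9% of all promoters, which says only that those letters do not stand in these windows.

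Among the receptors, Tnfrsf1b stood at 7.98, 8.11 and 8.06 on the wild-type arrays and at 8.51, 8.31 and 8.40 on the knockout arrays. Every knockout array was above every wild-type array, with a gap of 0.20. The mean rose from 8.05 ± 0.07 (SD, n = 3) to 8.41 ± 0.10 (SD, n = 3), a log2 change of 0.36 (SE 0.07; 95% interval 0.18 to 0.54; limma, adjusted p = 0.036). TNFR2 signals through TRAF proteins to NF-kB and, unlike TNFR1, has no death domain. This rise no longer passed without wild-type array 1 (change 0.32, adjusted p = 0.12), 2 (0.39, 0.089) or 3 (0.36, 0.12) and without knockout array 1 (0.31, 0.086) or 3 (0.36, 0.092). Nor did it pass when no dim clusters were left out (adjusted p = 0.056) or the arrays were brought to a common median (0.089).

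Tnfrsf1a, the death domain receptor, was at 8.51, 8.47 and 8.53 in wild type and at 8.43, 8.27 and 8.41 in knockout. All 3 knockout arrays were lower, by a gap of 0.04. The change of -0.13 (SE 0.07; 95% interval -0.29 to 0.03) did not pass (limma, adjusted p = 0.31). Within each array, the value of Tnfrsf1b minus that of Tnfrsf1a ran from -0.53 to -0.36 in wild type and from -0.01 to 0.08 in knockout. This difference shifted by 0.49 between genotypes (exact two-sided permutation p = 0.1, the smallest that 3 arrays against 3 allow), and the groups did not overlap. Each receptor's groups were already apart, in opposite directions, so this separation follows from the values above and adds no evidence. The size of the difference on 1 array has no meaning of its own, since the receptors are read by different probes.

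For the adaptor Fadd, which links death domain receptors to the initiator caspase, the values were 6.06, 5.81 and 5.93 in wild type and 5.83, 5.83 and 6.08 in knockout. The groups overlapped. The change was -0.02 (95% interval -0.26 to 0.22; limma, adjusted p = 0.95), and its sign turned under other settings, for example to 0.04 without wild-type array 1.

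Casp8 had the smallest adjusted p of the 8 genes. Its values were 13.40, 13.30 and 13.34 in wild type and 12.74, 12.80 and 12.89 in knockout, with a gap of 0.41 between the groups. The mean went from 13.35 ± 0.05 (SD, n = 3) to 12.81 ± 0.08 (SD, n = 3), a log2 change of -0.54 (SE 0.06; 95% interval -0.67 to -0.40; limma, adjusted p = 0.0032). A change of at least that size in either direction was seen in 4.74% of tested clusters. Dropping any 1 of the 6 arrays kept the call, with changes between -0.58 and -0.50 and adjusted p-values between 0.0074 and 0.022. In bulk RNA of a sorted population, fewer cells of a type and less RNA per cell cannot be told apart. Beside it, the mean over the 10 HSC marker clusters was 9.01 to 9.05 in wild type and 8.80 to 8.84 in knockout, where 3 fell, and of 6 tested B cell markers 3 fell (mean over the list's 7 clusters 5.12 to 5.17 against 4.82 to 4.87). The mean over 5 erythroid markers was 6.22 to 6.31 in wild type and 6.05 to 6.11 in knockout. Of these 1 fell, the carbonic anhydrase gene Car1 (change -1.04, limma, adjusted p = 0.0016). The other 4 did not pass, with changes of 0.09 (Gata1), 0.05 (Epor), 0.11 (Tfrc) and -0.06 (Klf1). The median change of the list was 0.05, so its lower mean rests on Car1. The part of these cell types in the Casp8 result was not tested.

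Casp9 was at 5.88, 5.98 and 5.91 in wild type and at 5.78, 5.72 and 5.71 in knockout. The knockout arrays were all lower, with a gap of 0.10. The change of -0.19 (SE 0.06; 95% interval -0.34 to -0.04) had an unadjusted p of 0.022 and did not pass after adjustment (limma, adjusted p = 0.14). The value of Casp9 minus that of Casp8 shifted by 0.35 between the genotypes (exact two-sided permutation p = 0.1, the smallest possible), without overlap of the groups. This shift restates the single-gene changes, and no smaller p was possible, so it decides nothing.

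Of the IAP genes, Birc3 encodes cIAP2, and its transcription is a well-known target of NF-kB. It was at 9.92, 9.67 and 9.70 in wild type and at 10.15, 10.09 and 10.23 in knockout. The groups did not overlap, and wild-type array 1 lay closest to the knockout arrays. The mean rose from 9.76 ± 0.14 (SD, n = 3) to 10.16 ± 0.07 (SD, n = 3), a log2 change of 0.39 (SE 0.08; 95% interval 0.19 to 0.59; limma, adjusted p = 0.038). Its call was kept without wild-type array 1 (adjusted p = 0.029) and lost without wild-type array 2 (change 0.35, adjusted p = 0.13) or 3 (0.36, 0.14) or knockout array 1 (0.40, 0.094), 2 (0.43, 0.071) or 3 (0.36, 0.11). With no filter the adjusted p was 0.056, and after all arrays were brought to a common median it was 0.0501.

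Birc2 encodes cIAP1, the other ubiquitin ligase of the receptor complex, and no gene of the RefSeq table lies between it and Birc3. It was at 9.05, 9.05 and 9.11 in wild type and at 9.51, 9.32 and 9.77 in knockout. The wild-type arrays were close together and the knockout arrays spread widely, with SDs of 0.04 and 0.23 (n = 3 each), and every knockout array was higher. The change of 0.46 (SE 0.11; 95% interval 0.19 to 0.73) missed the threshold (limma, adjusted p = 0.060). It passed without knockout array 2 (change 0.57, adjusted p = 0.033), after quantile normalization (0.036), with array weights (0.042) and with the dimmest 60% left out (0.046). Birc3 minus Birc2 within an array ran from 0.59 to 0.87 in wild type and from 0.46 to 0.77 in knockout, a shift of -0.07 (exact two-sided permutation p = 0.7). These genes are paralogues, and whether probes of 1 pick up transcripts of the other was not tested.

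Xiap, on the X chromosome, was at 7.86, 7.97 and 7.93 in wild type and at 7.80, 7.81 and 7.81 in knockout. The knockout arrays were lower by a gap of 0.05. The change of -0.11 (SE 0.06; 95% interval -0.25 to 0.03) did not pass (limma, adjusted p = 0.33). Relative to Xiap within each array, Birc2 shifted by 0.58 and Birc3 by 0.51 between genotypes. The exact two-sided permutation p was 0.1 for each, the smallest possible. Birc2 and Birc3 were higher and Xiap lower on every knockout array, so these p-values follow from the single-gene values and add no evidence. In all, 6 such pairs were computed. No p could fall under 0.1, with or without adjustment over the 6 pairs.

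**Figure D2:**
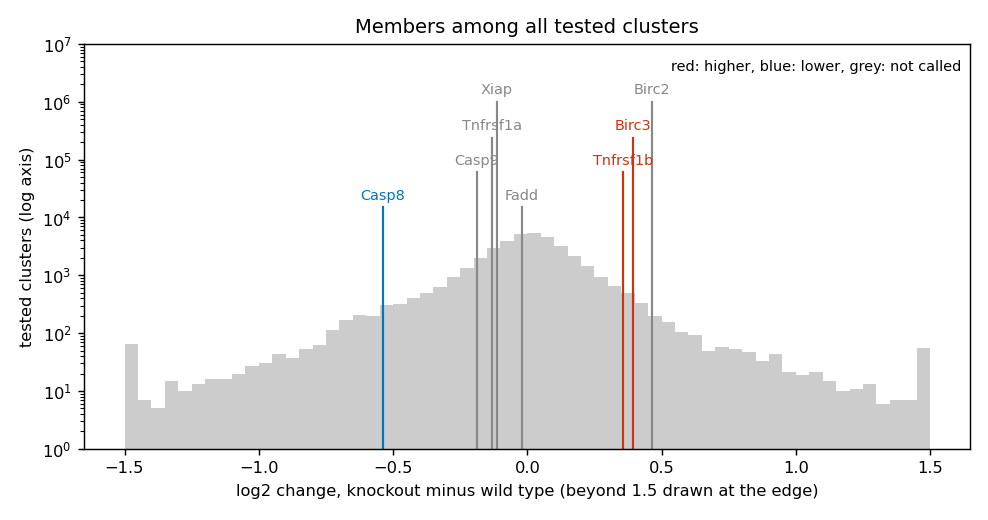
Number of tested clusters (vertical log axis) by log2 change, knockout minus wild type (horizontal axis, larger changes drawn at the edges), with the 8 genes as labelled lines. Casp8 at -0.54 lay to the left of the bulk of clusters, and Tnfrsf1b, Birc3 and Birc2 at 0.36, 0.39 and 0.46 to the right.

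Some markers of myeloid cells were called higher, as Birc3 and Tnfrsf1b were. Of 9 monocyte and macrophage markers 2 rose and 0 fell (3 rose and 0 fell at an unadjusted p under 0.05, limma), with a mean over the list of 7.75 to 7.88 in wild type and 7.92 to 8.08 in knockout. Their defining receptor gene Csf1r was at 7.58 and 7.76 and did not pass (adjusted p = 0.27), and Ly6c2 differed by -0.35 without passing. Of 10 granulocyte markers 3 rose and 0 fell (4 rose and 0 fell at an unadjusted p under 0.05, limma), with a mean of 8.41 to 8.51 against 8.63 to 8.80. S100a8 was at 8.75 and 9.16 without passing (adjusted p = 0.11), while Mpo differed by -0.05 and Ngp by 0.01. Mpo, at 16.93 in wild type and 16.87 in knockout, was the brightest of all listed cell type markers. Of 5 tested megakaryocyte markers 3 rose and 0 fell (5 rose and 0 fell at an unadjusted p under 0.05, limma). Their median change was 0.56, and the mean over 6 clusters was 6.23 to 6.25 against 6.66 to 6.70. The largest of their changes was that of F2r (1.15). Pf4 (limma, adjusted p = 0.11) and Vwf (0.22) did not pass, and Ppbp was too dim to test. All granulocyte and monocyte markers were bright enough to test, though the macrophage marker Adgre1, at 4.21 and 4.26, lay just above the limit. The part of these cells in the changes of Birc3 and Tnfrsf1b was not tested.

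The genes whose values over the 6 arrays were most like those of a called gene were found by the smallest root mean square difference after subtracting each gene's own mean, among 20259 other tested clusters with 1 symbol. They were Rbbp9 (0.02 log2 units) and Rsl1 (0.03) for Casp8, with log2 changes of -0.55 and -0.53. For Birc3 they were Zdhhc2 (0.03) and the myeloid integrin gene Itgam (0.04), with changes of 0.37 and 0.42. For Tnfrsf1b they were Cdk18 (0.02) and Mdn1 (0.02), with changes of 0.34 and 0.33. These differences depend mainly on the size of the step between genotypes.

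Around these genes, 62 further genes of the route were listed by role, of which 56 had a cluster and 51 were bright enough to test. Of the 51, 8 rose and 4 fell, with a median change of -0.03, against 2.96% of all tested clusters called higher and 4.84% called lower (4.72% and 5.9% of the protein-coding ones). The lists too were chosen with earlier results known, so this comparison tests nothing. Among the ligands, Tnf, the ligand of both receptors, rose, and Ltb and Tnfsf10 fell. Of 10 tested death receptors, ligands and adaptors, 2 rose and 2 fell (median 0.04).

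Tnf was at 11.08, 11.21 and 11.03 in wild type and at 11.53, 11.57 and 11.75 in knockout. The groups did not overlap, and the log2 change was 0.51 (SE 0.08; limma, adjusted p = 0.013). The call was lost on dropping wild-type array 1 (adjusted p = 0.055) or 3 (0.062). Ltb, encoding lymphotoxin beta and separated from Tnf by a single microRNA gene on chromosome 17, went the other way. It was at 7.75, 7.76 and 7.73 in wild type and at 7.25, 7.18 and 7.33 in knockout, a change of -0.49 (SE 0.06; limma, adjusted p = 0.0071) that held with any 1 array left out. Lta, the gene next to Tnf, was too dim to test, at 3.62 and 3.70, and so was the ligand gene Fasl. Tnfsf10, encoding the death ligand TRAIL, had a change of -0.44 (limma, adjusted p = 0.024), lost without wild-type array 1 (0.084), 2 (0.067) or 3 (0.10) and also without knockout array 1 (0.054). The TRAIL receptor gene Tnfrsf10b changed by 0.86 (limma, adjusted p = 8.4e-04), opposite in direction to its ligand, with 6.76, 6.70 and 6.73 in wild type and 7.58, 7.64 and 7.55 in knockout.

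The adaptor Tradd, which TNFR1 binds first, differed by -0.04 (95% interval -0.24 to 0.17) and did not pass. Cflar encodes cFLIP, which blocks activation of the caspase encoded by Casp8, and lies beside Casp8 on chromosome 1. Its cluster on chromosome 1 was at 8.14, 8.09 and 8.23 in wild type and at 8.00, 7.84 and 8.01 in knockout, a change of -0.20 (95% interval -0.38 to -0.03; limma, adjusted p = 0.18). Its brighter cluster bears the name of chromosome 3, so what it reports is less certain, and it differed by -0.28 (adjusted p = 0.21). The groups did not overlap in either Cflar cluster, but neither passed. Fas is read by a cluster named for chromosome 17 although the gene lies on chromosome 19, and it did not pass (change 0.20, adjusted p = 0.35). The Fas cluster of chromosome 19 was too dim to test, at 3.89 in wild type and 3.86 in knockout, so what the tested value reports is less certain.

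**Figure D3:**
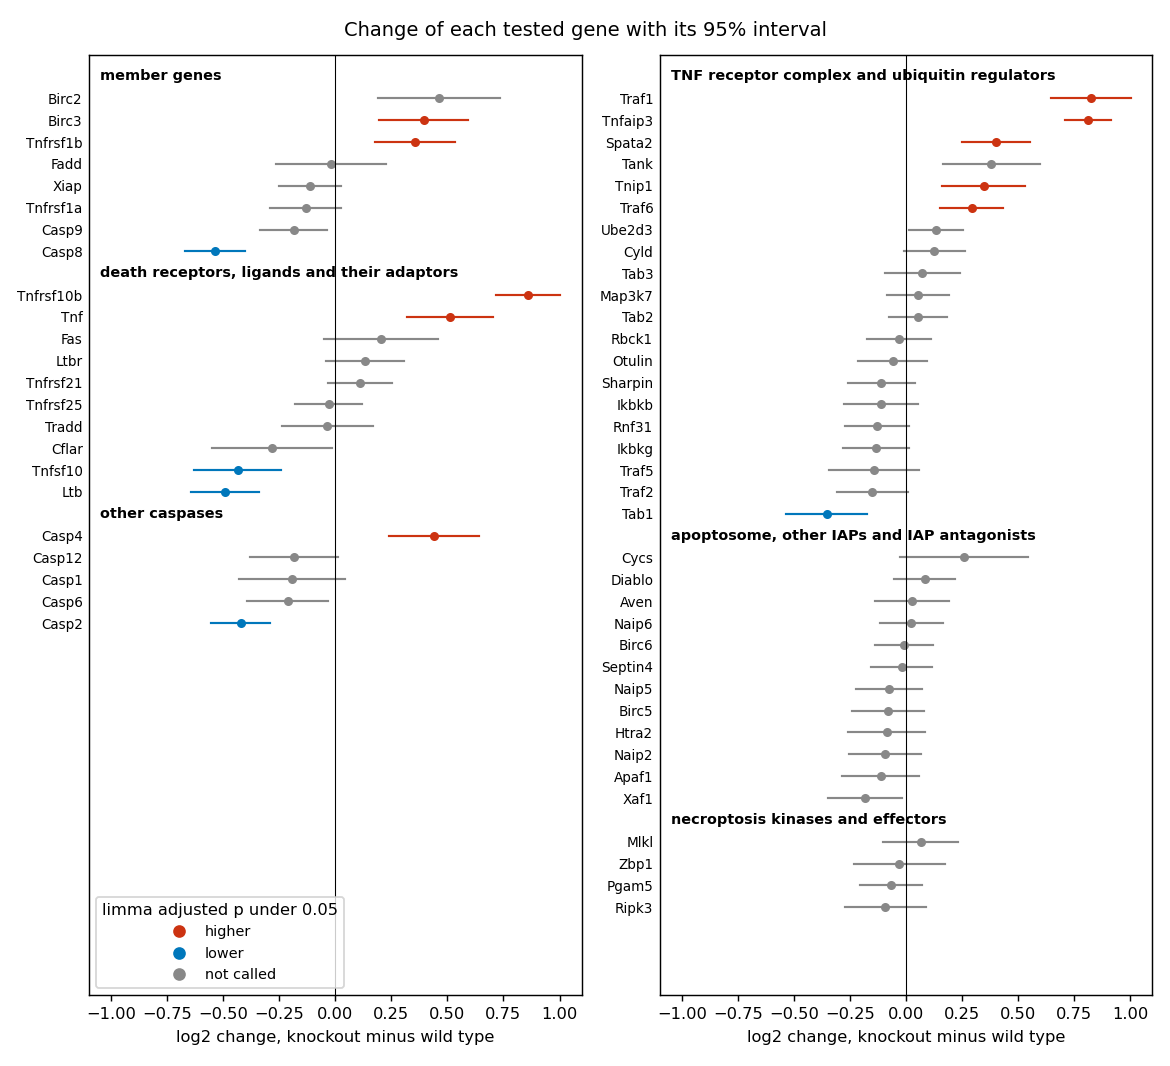
Log2 change, knockout minus wild type (horizontal axis), of the 8 measured genes and 51 tested genes of the route, each with its 95% interval, coloured by whether limma's adjusted p was under 0.05. Traf1 (0.83), Tnfrsf10b (0.86) and Tnfaip3 (0.81) lie farthest to the right and Casp8 (-0.54) farthest to the left.

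In the receptor complex and its ubiquitin regulators, 5 of 20 tested genes rose, 1 fell and 14 did not pass (median 0.05). Traf1, which binds TNFR2 through TRAF2, was at 6.15, 6.04 and 6.06 in wild type and at 6.96, 6.80 and 6.97 in knockout. All knockout arrays lay above all wild-type arrays, and the change was 0.83 (SE 0.07; limma, adjusted p = 0.0021). Tnfaip3, encoding the ubiquitin-editing enzyme A20, changed by 0.81 (limma, adjusted p = 2.9e-04) and its partner Tnip1 by 0.35 (adjusted p = 0.044). Spata2, which bridges the deubiquitinase CYLD to the receptor complex, rose by 0.40 (limma, adjusted p = 0.013), and the ubiquitin ligase gene Traf6 by 0.29 (adjusted p = 0.030). Tab1, encoding a partner of the kinase TAK1, fell by 0.35 (limma, adjusted p = 0.039). The TNFR1 complex member Traf2 differed by -0.15 (adjusted p = 0.25). Of the linear ubiquitin ligase genes, Rnf31 differed by -0.13, Rbck1 by -0.03 and Sharpin by -0.11, and these 3 were named after their values were seen and did not pass.

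The calls of Traf1 and Tnfaip3 held with any 1 array left out. Those of Traf6 and Tab1 were lost whichever of the 6 arrays was dropped, with adjusted p-values of 0.054 to 0.12 and 0.068 to 0.15. That of Tnip1 was kept without knockout array 2 (adjusted p = 0.024) and lost without any other single array (0.11 to 0.15). Spata2 lost its call without wild-type array 1 (0.053) or 3 (0.063). Thus the count of rises in this list was 2 without wild-type array 1 or 3, 3 on dropping array 2 of the wild type or array 1 or 3 of the knockout, and 5 on dropping knockout array 2, where Tank, an adaptor of TRAF proteins named after its value was seen, passed. With no filter or at a common median of the arrays it was 3, since Traf6 (adjusted p = 0.052 and 0.081) and Tnip1 (0.069 and 0.10) no longer passed, and Tab1 (0.061 and 0.054) did not pass either.

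Among the other caspases, 1 of 5 tested rose and 1 fell (median -0.19). Casp2, an initiator linked to DNA damage, was at 10.99, 10.94 and 10.99 in wild type and at 10.57, 10.48 and 10.60 in knockout. The groups were separated by 0.34, and the change was -0.42 (SE 0.06; limma, adjusted p = 0.0072), a call that held with any 1 array left out. Casp4, encoding the inflammatory caspase that senses bacterial lipopolysaccharide, was at 9.51, 9.60 and 9.58 in wild type and at 10.17, 9.89 and 9.95 in knockout. Its change was 0.44 (SE 0.08; limma, adjusted p = 0.027), lost without wild-type array 1 (0.093), 2 (0.085) or 3 (0.098) and also without knockout array 3 (0.061). At a common median of the arrays its adjusted p was 0.057. Casp1 and Casp12, its neighbours on chromosome 9, differed by -0.19 and -0.18 and did not pass, nor did Casp6 at -0.21; these 3 were named after their values were seen.

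Downstream at the mitochondrial route, none of 12 tested genes of the apoptosome, the other IAPs and the IAP antagonists passed, and the counts were 0 higher and 0 lower (limma; 0 higher and 1 lower at an unadjusted p under 0.05). Their changes lay between -0.18 and 0.26, with a median of -0.05. The highest, 0.26, is that of Cycs, encoding cytochrome c, which is read by a cluster named for chromosome 19 although the gene lies on chromosome 6, and the dimmer Cycs cluster of chromosome 6 differed by 0.23 (adjusted p = 0.27). Apaf1, the scaffold that activates the caspase encoded by Casp9, differed by -0.11 (95% interval -0.29 to 0.06), and Diablo, encoding the IAP antagonist SMAC, by 0.08 (95% interval -0.05 to 0.22). The list includes Naip2, Naip5 and Naip6, related genes of 1 family, and whether their probes tell them apart was not tested. Of 4 tested necroptosis genes, 0 rose and 0 fell (limma; also 0 at an unadjusted p under 0.05). Ripk3, the necroptosis kinase, was at 10.08 and 9.99, a change of -0.09 (95% interval -0.27 to 0.09), and its effector Mlkl was at 9.05 and 9.12, a change of 0.07 (95% interval -0.10 to 0.23). With 3 arrays a genotype, changes within these intervals could not be told from no change.

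**Figure D4:**
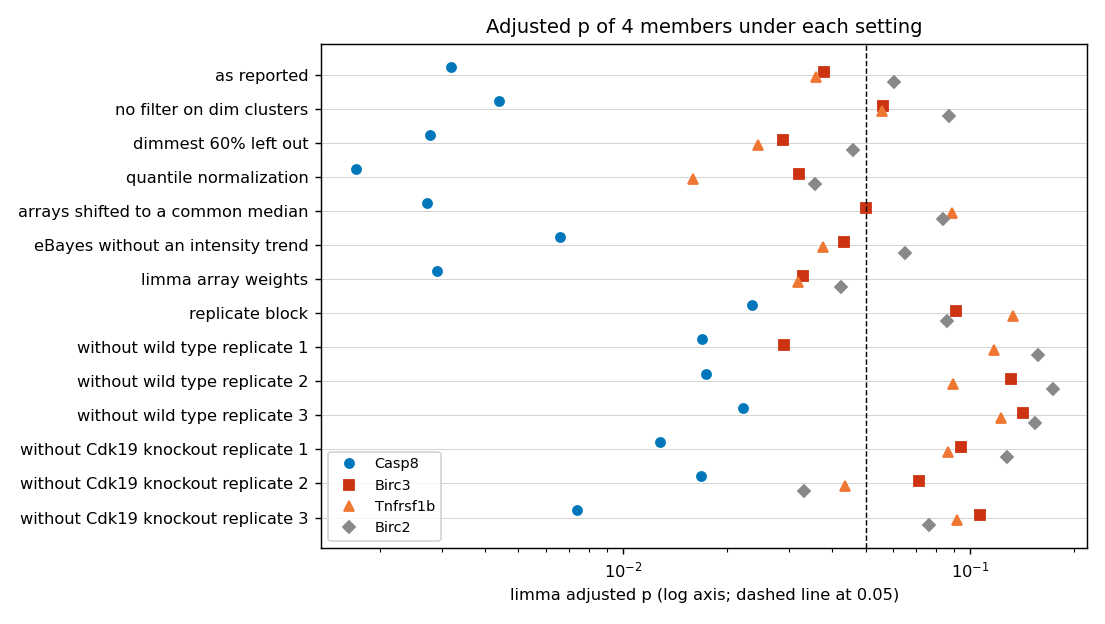
Adjusted p of limma (horizontal log axis) for Casp8, Birc3, Tnfrsf1b and Birc2 as reported and under each of 13 other settings (vertical axis), with a dashed line at 0.05. Casp8 stays to the left of the line in every setting shown, while Birc3, Tnfrsf1b and Birc2 fall on both sides of it.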

How the data were processed

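RNA of sorted HSCs was measured on 6 whole-transcript arrays, 3 per genotype. The deposited table holds the authors' processed values, taken as log2, for 65956 transcript clusters. They run from 2.04 to 19.93, with array medians of 4.40 to 4.48. Per the submitters' processing notes MAS5 was used, with no version or role, and the background correction, probe summary, normalization and log base are not given in any source used here. No depth exists for arrays, and their number limits the precision. Symbols came from the platform annotation, in which 30604 clusters had 1 symbol, 2146 several and 33206 none. Symbols of 827 clusters were updated through gene IDs of the RefSeq table (GRCm38.p6).

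Clusters among the dimmest 40% by their mean on the 6 arrays (limit 4.09) were dropped, which kept 39543. The limma package (3.58.1, in R 4.3.3) was then used to fit genotype alone, with empirical Bayes moderation that follows intensity. The two-sided p-values were adjusted by Benjamini-Hochberg across every tested cluster. The fit was also run on simulated arrays with known changes, which checks the size of its estimates and not the calls made here. Tables used Python 3.11.15 and pandas 2.3.3, and plots matplotlib 3.10.9. The brightest cluster of each symbol was used. All 9 listed genes, Cdk19, called genes of the 5 role lists and a few further genes set by function were named. The genes and lists were chosen with earlier results of these data known. Alternatives were other filters, scalings and variance models, a replicate block and leaving out each array. Same-numbered arrays had deviations from their group means that correlated at -0.14, -0.10 and 0.03 across clusters, so the numbers were not taken to pair the arrays.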

Additional observations from a re-analysis of the deposited data

How the results depend on the processing

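The fall of Casp8 was called under all 13 alternatives tried, with changes between -0.58 and -0.50. Casp9, Xiap and Tnfrsf1a kept their direction and did not pass under any of them. Birc3 was not called with no filter (0.39), with arrays shifted to a common median (0.36) or with a replicate block (0.39, adjusted p = 0.091), and with 1 array left out its change ran from 0.35 to 0.47. Tnfrsf1b was not called with no filter (0.36), a common median (0.33) or a replicate block (0.36, adjusted p = 0.13), and ran from 0.31 to 0.41 with 1 array left out. Under these 3 settings the count of these genes called higher was 0 by limma, while 3 were higher at an unadjusted p under 0.05. The share of all tested clusters at that unadjusted cutoff was not computed, so the 3 cannot be weighed against a background. With 1 array left out the count ran from 0 to 2. Birc2 was called with the dimmest 60% left out (0.46), after quantile normalization (0.48) and with array weights (0.46), and ran from 0.35 to 0.57 with 1 array left out. Fadd changed sign after quantile normalization (0.002) and ran from -0.10 to 0.043 with 1 array left out. Over all tested clusters the replicate block called 630 higher and 1083 lower, against 1172 and 1914 without it, and leaving out 1 array gave 542 to 971 higher and 764 to 1508 lower. The mean of all clusters of a symbol gives no other value, since each measured gene has 1 cluster. Replicate numbers are only shared names here, so a call lost under the block is not read as a weaker effect.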
